A study of Mus musculus with 16 samples.

Results

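The genes described here are 43 members of the basic helix-loop-helix (bHLH) family of transcription factors, out of 21631 protein-coding genes on mouse chromosomes 1 to 19 and X. They were taken by name, and the rule uses no measured value, but they were chosen with earlier results of these data known. They are 29 tissue-specific genes, 5 E-protein and Myc genes, and 9 genes of the Id, Hes, Hey and Bhlhe40 groups. The 29 are neurogenic and other ectodermal or endodermal genes, together called neural here, and muscle and mesodermal genes. Each gene was measured over its body plus 5 kb on each side, called its window, as the share of bases that lay inside a deposited peak of H3K27me3. H3K27me3 is the trimethylated lysine of histone H3 that the Polycomb enzyme EZH2 writes and that marks silent genes. The chromatin came from splenic B cells of mice aged 6 to 8 weeks, all labelled as strain C57BL/6, that were kept for 48 hours with BAFF and IL-4, each at 2 ng/mL. The mice were wild type (WT) or were labelled as an Ifih1/Rigi/cGAS triple mutant, and the cells of either genotype received the solvent DMSO or 1 µM of GSK343, an inhibitor of EZH2. The kind of mutation in the 3 sensor genes is not stated, and nothing says whether replicates came from separate mice.

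The 16 samples form 8 groups of 2, since ChIP and input DNA were sequenced for every combination of genotype and drug. The values used came from 4 lists of broad peaks, 1 per combination. Peak names in each list refer to pooled duplicates, although those of the mutant lists end in 1 and may rest on 1 replicate. No value therefore has a replicate, and every difference between lists is given without a test. The lists held 39495 (DMSO) and 11903 (GSK343) peaks in WT cells, and 49803 and 10847 in mutant cells, and the read depth behind them is unknown. As a check of the cell label, none of 10 B cell marker genes, Pax5 among them, had a peak in its window in any of the 4 lists, and 6 of 7 T cell marker genes and 3 of 6 myeloid ones had one in WT DMSO. Since 43.5% of all genes had one there, the myeloid count is near the background.

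bHLH factors bind DNA as dimers at a short motif, the E-box. E-proteins are the widely expressed partners, and in B cells they are required for lineage commitment. Tissue-specific members such as the neurogenins or MyoD pair with E-proteins to drive a lineage programme. Id proteins lack the basic region and hold E-proteins away from DNA, whereas Hes and Hey proteins are repressors downstream of Notch, and Myc proteins pair with Max in growth control. In cells of other lineages the tissue-specific members are well known targets of Polycomb.

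The start sites of 29 of the 43 genes were found in a RefSeq table for GRCm38.p6, and 6 promoters are shown because they carry the contrast that runs through the results. Olig2, Neurog2 and Neurod2 had the highest mean covered share of the 2 GSK343 lists among tissue-specific genes, Tcf3 is an E-protein gene with no peak, and Neurod6 and Myog, tissue-specific genes with next to no peak, were added after their values were seen. Each sequence is the 250 bases before the start, read 5′ to 3′ on the strand of the gene, with CG dinucleotides in capitals. The starts used for Neurog2 and Tcf3 lie inside the annotated span of the gene. The positions are chr16:91225300-91225549 on the plus strand for Olig2, chr3:127632886-127633135 on the plus strand for Neurog2, chr11:98329646-98329895 on the minus strand for Neurod2, chr6:55681264-55681513 on the minus strand for Neurod6, chr1:134289754-134290003 on the plus strand for Myog and chr10:80433636-80433885 on the minus strand for Tcf3.
Olig2: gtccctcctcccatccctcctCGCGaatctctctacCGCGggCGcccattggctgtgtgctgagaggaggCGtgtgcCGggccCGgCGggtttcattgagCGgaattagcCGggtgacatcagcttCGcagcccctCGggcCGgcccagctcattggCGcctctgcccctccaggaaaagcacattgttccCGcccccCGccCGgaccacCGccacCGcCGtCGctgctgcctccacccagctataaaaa
Neurog2: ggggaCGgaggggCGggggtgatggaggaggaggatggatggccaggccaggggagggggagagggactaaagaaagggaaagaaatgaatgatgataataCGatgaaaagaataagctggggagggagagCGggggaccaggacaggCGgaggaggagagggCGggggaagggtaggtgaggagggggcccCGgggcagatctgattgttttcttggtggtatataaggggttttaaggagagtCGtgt
Neurod2: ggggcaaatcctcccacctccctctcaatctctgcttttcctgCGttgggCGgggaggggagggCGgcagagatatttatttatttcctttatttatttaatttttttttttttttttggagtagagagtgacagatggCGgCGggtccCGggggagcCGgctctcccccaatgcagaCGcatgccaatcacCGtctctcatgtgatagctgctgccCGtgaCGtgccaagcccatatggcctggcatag
Neurod6: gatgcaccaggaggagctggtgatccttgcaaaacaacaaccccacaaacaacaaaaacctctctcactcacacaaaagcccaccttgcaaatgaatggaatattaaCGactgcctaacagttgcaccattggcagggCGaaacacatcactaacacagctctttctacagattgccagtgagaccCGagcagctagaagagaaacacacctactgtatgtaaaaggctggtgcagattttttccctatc
Myog: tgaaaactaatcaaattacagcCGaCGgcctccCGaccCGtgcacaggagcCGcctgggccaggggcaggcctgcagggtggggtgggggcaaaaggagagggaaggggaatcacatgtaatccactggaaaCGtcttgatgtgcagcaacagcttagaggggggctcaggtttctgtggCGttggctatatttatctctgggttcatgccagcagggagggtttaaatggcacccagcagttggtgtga
Tcf3: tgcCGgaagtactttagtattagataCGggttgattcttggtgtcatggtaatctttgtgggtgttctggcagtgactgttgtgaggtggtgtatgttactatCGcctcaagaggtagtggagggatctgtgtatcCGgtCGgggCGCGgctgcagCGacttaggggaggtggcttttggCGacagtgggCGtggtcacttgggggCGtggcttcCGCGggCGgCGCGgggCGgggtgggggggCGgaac
These stretches hold 22 CG dinucleotides in Olig2, 8 in Neurog2, 11 in Neurod2, 3 in Neurod6, 7 in Myog and 18 in Tcf3.

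Peaks of H3K27me3 covered most of the tissue-specific bHLH genes and almost none of the E-protein genes. In WT DMSO cells 25 of the 29 tissue-specific genes had a peak in their window, and the median covered share was 59.6%. The corresponding counts were 22 of 29 in WT GSK343 (median 27.8%), 27 of 29 in mutant DMSO (75.8%) and 22 of 29 in mutant GSK343 (30.4%). Among the 5 E-protein and Myc genes the median was 0 in each of the 4 lists, and only Mycn carried more than a trace. The median over all 21631 genes was also 0 in each list.

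Counted over all 43 genes, 34 had a peak in WT DMSO, where 43.5% of all genes did. The count was 29 in WT GSK343, against 26.3% of all genes, 36 in mutant DMSO, against 48.9%, and 29 in mutant GSK343, against 24.4%. At least 50% of the window was covered in 22 of the 43 genes in WT DMSO, whereas 5.16% of all genes reached that level. With GSK343 the count was 10 in WT cells (1.35% of all genes) and 10 in mutant cells (0.994%). Mutant cells with DMSO had 25 such genes (7.85%). The tissue-specific genes are short, with windows of 11.5 to 22.1 kb apart from Twist2 at 56.6 kb, against a median of 27.3 kb for all genes. Among the 6755 genes with windows in that range of 11.5 to 22.1 kb, 10.3% were covered to at least 50% in WT DMSO and 3.55% in WT GSK343. The tissue-specific genes alone reached 62.1% and 31.0% at the same level.

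**Figure D1:**
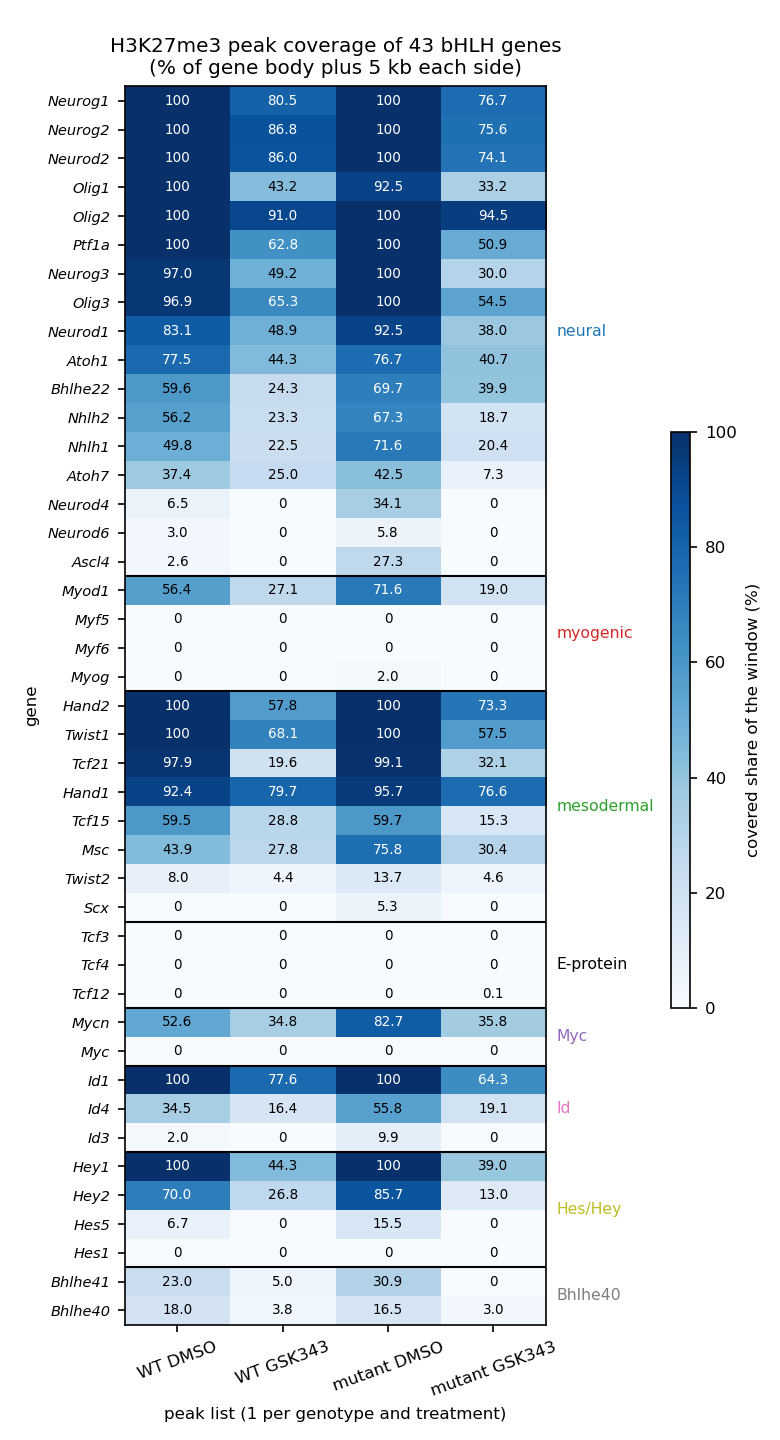
Covered share of the window (gene body plus 5 kb on each side, in %) for each of the 43 genes (rows, grouped by role) in the 4 peak lists (columns), with darker blue for a larger share. Neurog1, Neurog2, Neurod2, Olig2, Hand1 and Id1 are among the darkest rows, with more than 60% in every list, and Tcf3, Tcf4, Myc, Hes1, Myf5 and Myf6 are at 0 in all 4 lists.

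Where a gene has a pair of values per genotype, DMSO comes first and GSK343 next. Among the neural genes, the neurogenins, which set off neuronal differentiation, were fully or almost fully covered under DMSO. Neurog1 (chromosome 13, 56250478 to 56252180) was covered by 100% with DMSO and 80.5% with GSK343 in WT cells, and by 100% and 76.7% in mutant cells. Neurog2 (chromosome 3, 127632733 to 127635636) had shares of 100% and 86.8% in WT and 100% and 75.6% in mutant cells. Neurog3 (chromosome 10, 62133090 to 62134763), which specifies the endocrine cells of the pancreas, had 97.0% and 49.2% in WT and 100% and 30.0% in mutant cells. All 3 genes were lower under GSK343 in both genotypes, and Neurog3 kept the least.

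The NeuroD genes act after the neurogenins in differentiating neurons, and Neurod1 and Neurod2 were covered far more than Neurod4 and Neurod6. Neurod2 (chromosome 11, 98325415 to 98329645) was covered by 100% and 86.0% in WT and 100% and 74.1% in mutant cells. Neurod1 (chromosome 2, 79452637 to 79456636), also active in the endocrine pancreas, had 83.1% and 48.9% in WT and 92.5% and 38.0% in mutant cells. Neurod4 (chromosome 10, 130268152 to 130280254) and Neurod6 (chromosome 6, 55677818 to 55681263) instead had peaks under DMSO only. The share of Neurod4 under DMSO was 6.47% in WT cells, from 1 peak of 1.43 kb, and 34.1% in mutant cells, from 3 peaks of up to 5.23 kb. That of Neurod6 was 3.04% and 5.77%, made by peaks of 0.409 and 0.776 kb that lay outside the gene body. Under GSK343 the nearest peak to Neurod6 was 225 kb away in either genotype.

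The Olig genes direct oligodendrocyte and motor neuron fates. Olig2 (chromosome 16, 91225550 to 91228677) kept more of its coverage than any other of the 43 genes in both genotypes, with 100% and 91.0% in WT and 100% and 94.5% in mutant cells. Its neighbour Olig1 (chromosome 16, 91269769 to 91271939), 41.1 kb away, had 100% and 43.2% in WT and 92.5% and 33.2% in mutant cells. Olig3 (chromosome 10, 19356539 to 19358604), which acts in the dorsal spinal cord, had 96.9% and 65.3% in WT and 100% and 54.5% in mutant cells. So the 2 neighbours were alike under DMSO and far apart under GSK343. No single peak spanned both, and peaks filled 67.2% of the gap between them in WT DMSO and 24.0% in WT GSK343, against 81.5% and 20.8% in the mutant.

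The remaining neural genes spanned the whole range. Ptf1a (chromosome 2, 19445663 to 19447501), a factor of the exocrine pancreas and of inhibitory neurons, was covered by 100% and 62.8% in WT and 100% and 50.9% in mutant cells. Atoh1 (chromosome 6, 64729125 to 64731245), needed for hair cells and cerebellar granule cells, had 77.5% and 44.3% in WT and 76.7% and 40.7% in mutant cells. Atoh7 (chromosome 10, 63099785 to 63101280), needed for retinal ganglion cells, had 37.4% and 25.0% in WT and 42.5% and 7.29% in mutant cells. Its mutant GSK343 share was the lowest of the neural genes that kept a peak. Bhlhe22 (chromosome 3, 18054325 to 18057514), a repressor in neurons, had 59.6% and 24.3% in WT and 69.7% and 39.9% in mutant cells. Nhlh1 and Nhlh2, factors of young neurons, were covered by 49.8% and 56.2% in WT DMSO, and by 18.7% to 23.3% in the GSK343 lists. Ascl4 (chromosome 10, 85927402 to 85929649), a factor described in skin, had only 2.63% in WT DMSO, 27.3% in mutant DMSO and no peak under GSK343. The peaks of Ascl4 all lay outside the gene body.

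The 4 myogenic genes, which determine skeletal muscle, were split. Myod1 (chromosome 7, 46376474 to 46379092) was covered by 56.4% and 27.1% in WT and 71.6% and 19.04% in mutant cells. Myf5 and Myf6, which lie 5.92 kb apart on chromosome 10 with overlapping windows, had no peak in any list. The nearest peak to Myf5 in WT DMSO was 209.9 kb away. Myog (chromosome 1, 134290004 to 134292548), the muscle differentiation factor, had no peak in its window except 1 of 0.253 kb in mutant DMSO, with a fold over background of 2.19. Fold is the authors' value for a peak. Peaks did lie just beyond the window of Myog, at 5.31 kb from the gene in WT DMSO and 6.84 kb in WT GSK343. So of the muscle determination genes, only Myod1 lay in a peak in WT cells.

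The mesodermal genes were mostly covered. Hand1 (chromosome 11, 57828713 to 57832147), of heart and extraembryonic mesoderm, had shares of 92.4% and 79.7% in WT and 95.7% and 76.6% in mutant cells. Hand2 (chromosome 8, 57320983 to 57324517), of heart and limb, had 100% and 57.8% in WT and 100% and 73.3% in mutant cells. Twist1 (chromosome 12, 33957671 to 33959831), of cranial mesenchyme, had 100% and 68.1% in WT and 100% and 57.5% in mutant cells. These 3 kept more than 50% of their DMSO coverage in both genotypes. Tcf21 (chromosome 10, 22817263 to 22820143), of epicardium and visceral mesoderm, stood apart with 97.9% and 19.6% in WT and 99.1% and 32.1% in mutant cells: it was nearly full under DMSO, and in WT it kept the smallest part, 20.1%, among the 18 tissue-specific genes covered to at least 50%. The peaks left at Tcf21 were short, 4 in WT GSK343 and 6 in mutant GSK343, with the widest at 1.32 and 2.06 kb. Their highest fold was 3.93 in WT GSK343, and the strongest of them by p-value ranked at percentile 97.9 of that list.

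Tcf15, of the paraxial mesoderm, had 59.5% and 28.8% in WT and 59.7% and 15.3% in mutant cells. Msc, of branchial muscle precursors, had 43.9% and 27.8% in WT and 75.8% and 30.4% in mutant cells. Twist2 (chromosome 1, 91801461 to 91848034), of dermis, had 7.96% and 4.403% in WT and 13.7% and 4.56% in mutant cells, but the gene is long and its peak lay over the start site, with a width of 4.50 kb in WT DMSO and 2.49 kb in WT GSK343. Scx (chromosome 15, 76457411 to 76459468), the tendon factor, lies inside Bop1, a ribosome biogenesis gene, and had no peak apart from 1 of 0.636 kb in mutant DMSO. A low share thus stood for a short peak at the start in Twist2 and for no or a weak peak in Scx.

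E-protein genes had no called peak in their windows despite their length, apart from 1 short peak in Tcf12. In WT DMSO 43.5% of all genes had a peak. Tcf3 (chromosome 10, 80409541 to 80433976), whose products E12 and E47 are central to B cell commitment, had no peak in its window in the 4 lists, and the nearest peak was 12.7 to 13.7 kb away. Tcf4 (chromosome 18, 69343429 to 69687967) had none in a window of 355 kb. Tcf12 (chromosome 9, 71844252 to 72111893) had none in a window of 278 kb in 3 lists. In mutant GSK343 a single peak of 0.323 kb, with a fold of 3.21, lay inside Tcf12. It took up 0.116% of the window, and was the only case among the 43 genes of a GSK343 peak in a window that was free under DMSO of the same genotype.

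The 2 Myc genes differed fully. Myc (chromosome 15, 61985341 to 61990361), induced when B cells are activated, had no peak in its window in any list, and the nearest one was 140 kb away in WT DMSO and 46.3 kb away in mutant DMSO. Mycn (chromosome 12, 12936093 to 12941836), its paralogue of neural and other progenitor cells, was covered by 52.6% and 34.8% in WT and 82.7% and 35.8% in mutant cells. The widest peak over Mycn measured 7.81 kb with DMSO and 4.61 kb with GSK343 in WT cells. Mycn thus stood with the tissue-specific genes rather than with Myc.

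Among the Id genes, which encode the inhibitors of E-proteins, Id1 (chromosome 2, 152736251 to 152737410) was covered by 100% and 77.6% in WT and 100% and 64.3% in mutant cells. Id4 (chromosome 13, 48261116 to 48266028) had 34.5% and 16.4% in WT and 55.8% and 19.1% in mutant cells. Id3 (chromosome 4, 136143822 to 136145392), which is active in resting B cells, had 2.00% in WT DMSO, 9.90% in mutant DMSO and no peak under GSK343. The peaks in its window lay outside the gene body and had folds of 2.14 to 2.37. The 3 inhibitors of one partner thus ranged from full to near zero coverage.

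Of the Notch-related repressors, Hey1 (chromosome 3, 8663359 to 8667038) was covered by 100% and 44.3% in WT and 100% and 39.0% in mutant cells. Hey2 (chromosome 10, 30832359 to 30842783) had 70.0% and 26.8% in WT and 85.7% and 13.0% in mutant cells. Hes1, a target of Notch in many tissues, had no peak in any list, and Hes5, a repressor in neural progenitors, had 6.67% in WT DMSO, 15.5% in mutant DMSO and none under GSK343. Bhlhe40 and Bhlhe41, repressors tied to the circadian clock and present in lymphocytes, had partial coverage of 18.05% and 23.0% in WT DMSO, and 3.82% and 5.01% in WT GSK343. In mutant GSK343 Bhlhe40 had 2.97% and Bhlhe41 no peak. The peaks in the windows of Bhlhe40 and Hes5 all lay outside the gene bodies, 0.799 kb from Bhlhe40 in WT DMSO. Both Hey genes were covered well above both Hes genes in each list.

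DMSO and GSK343 were compared within each genotype by the covered length that was left. In WT cells the summed covered length over the 29 tissue-specific windows was 228 kb under DMSO and 139.9 kb under GSK343, so that 61.3% was left. In mutant cells it was 256 kb and 127 kb, or 49.5%. The same ratio over all protein-coding genes was 32.1% in WT and 18.4% in mutant cells, and over the genes with windows of 11.5 to 22.1 kb it was 43.6% and 29.2%. For the tissue-specific genes the ratio depended on the window. It was 0.775 (WT) and 0.643 (mutant) for the gene body alone, and 0.453 and 0.323 with flanks of 20 kb. Those other windows were not measured over all genes. Of the 34 genes with a WT DMSO peak, 17 had a GSK343 share at or below 50% of their DMSO share, and 82.6% of all genes with a DMSO peak did. In mutant cells the count was 24 of 36, against 93.3% of all such genes. Among the genes with windows of 11.5 to 22.1 kb these shares were 73.2% and 86.8%.

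Every base that lay in a GSK343 peak in the tissue-specific windows also lay in a DMSO peak of the same genotype. A full loss of peaks from the window was seen in 5 of the 34 genes in WT cells, namely Neurod4, Neurod6, Ascl4, Id3 and Hes5, and in 39.9% of all genes with a DMSO peak. In mutant cells it was seen in 8 of 36 genes, the same 5 with Myog, Scx and Bhlhe41, and in 50.4% of all such genes. Each of the 5 genes common to both genotypes was covered by less than 7% in WT DMSO, by peaks with folds of 2.37 to 2.70. By contrast, the strongest WT DMSO peak at the 18 tissue-specific genes covered to at least 50% had a fold between 3.31 and 4.45.

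Genes covered to at least 50% under DMSO were also set side by side. Among these, the median share of covered bases left under GSK343 was 58.3% for the 18 tissue-specific genes in WT cells and 46.0% for all 1116 genes. In mutant cells it was 52.0% for 20 tissue-specific genes and 25.2% for all 1697 genes. Over genes with windows of 11.5 to 22.1 kb the medians were 53.5% (696 genes) in WT and 32.7% (944 genes) in mutant cells. The members ranged widely, from 20.1% at Tcf21 to 91.0% at Olig2 in WT, and from 25.6% at Tcf15 to 94.5% at Olig2 in mutant cells.

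**Figure D2:**
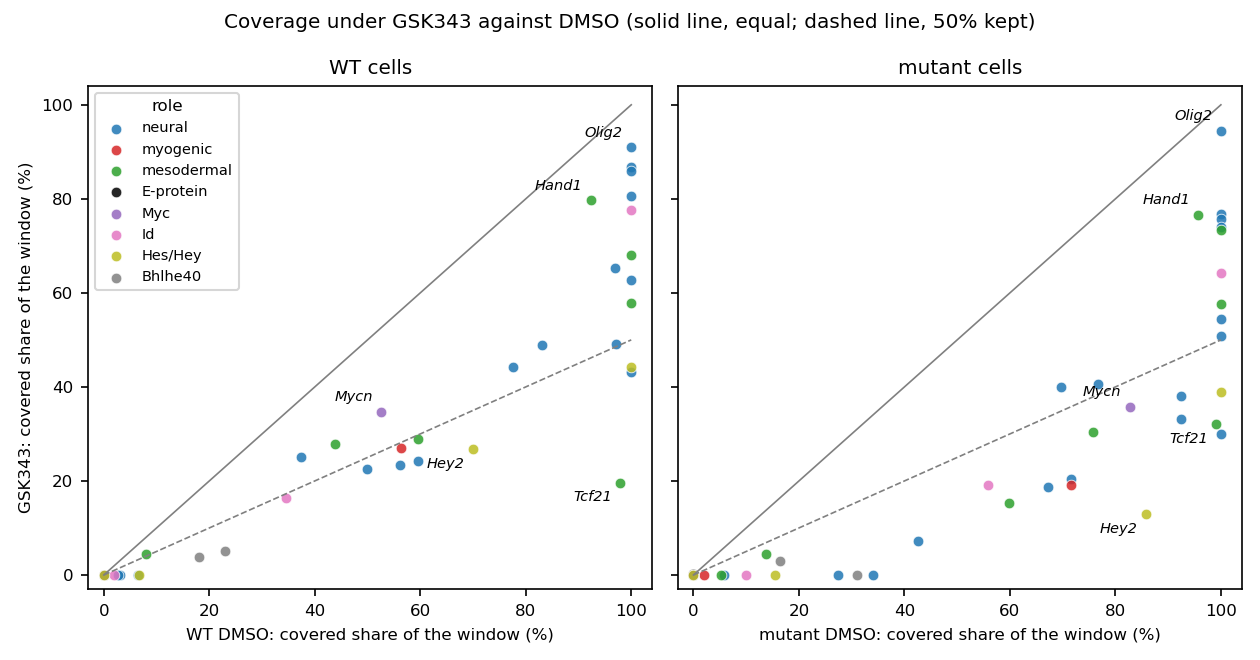
Covered share of the window under GSK343 (vertical axis, %) against DMSO (horizontal axis, %) for each of the 43 genes (points, coloured by role), in WT cells (left) and mutant cells (right). Genes with a DMSO peak lie below the solid line of equality, genes with no peak lie on it at 0, Tcf12 lies just above it in mutant cells, Olig2 and Hand1 stay closest to it among the highly covered genes, and Tcf21 is nearly full under DMSO but at 19.6% (WT) and 32.1% (mutant) under GSK343.

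At the 5 widest WT DMSO peaks over these genes, the GSK343 lists had several shorter peaks each. The widest WT DMSO peak over a member was at Hand2 (chromosome 8, 57310599 to 57350656, 40.1 kb, fold 3.61), and 7 WT GSK343 peaks covered 42.4% of it, the widest of them 4.48 kb long. The peak at Neurod2 (chromosome 11, 98309274 to 98340862) was 31.6 kb long, and 5 WT GSK343 peaks covered 84.7% of it. At Neurog2 (chromosome 3, 127621026 to 127647320) the peak was 26.3 kb long, and 3 WT GSK343 peaks covered 60.1% of it. The peaks at Olig2 (chromosome 16, 91210981 to 91235630, 24.7 kb) and Neurog1 (chromosome 13, 56242880 to 56266821, 23.9 kb) had 4 WT GSK343 peaks each, covering 60.9% and 57.5%. In mutant GSK343, 3 to 8 peaks lay in each of these 5 domains and covered 45.7% to 69.1% of them. Each domain was overlapped by 1 single peak in mutant DMSO, of 33.9 to 68.6 kb. Hand1 differed, with 1 peak in each list, of 21.3 kb and 15.2 kb in WT and 31.2 kb and 10.7 kb in mutant cells. By width these 5 peaks, picked as the widest over members, ranked from percentile 99.49 (Neurog1) to 99.91 (Hand2) of the WT DMSO list.

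The share left was highest close to the start site. For the 21 tissue-specific genes with a known start, bins of 500 bp within 2.5 kb of the start were covered by 72.1% on average in WT DMSO and 52.8% in WT GSK343, so that 73.3% was left. At 5 to 10 kb on either side the values were 47.1% and 20.2%, and 42.9% was left. At 15 to 20 kb they were 19.6% and 4.73%, and 24.1% was left. The mutant showed the same order, with 62.4%, 36.5% and 9.65% left at the 3 distances. Over all 17274 genes with a start, 48.5% was left within 2.5 kb and 25.1% at 15 to 20 kb in WT, and 35.0% and 12.5% in mutant cells. At 5 to 10 kb it was 23.8% and 12.0%. So over all genes the share left was highest near the start and about level beyond 5 kb, without the further step down seen at the bHLH genes. That step rests on few genes, since GSK343 coverage at 15 to 20 kb averaged only 4.73% (WT) and 3.32% (mutant) over the 21 genes.

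**Figure D3:**
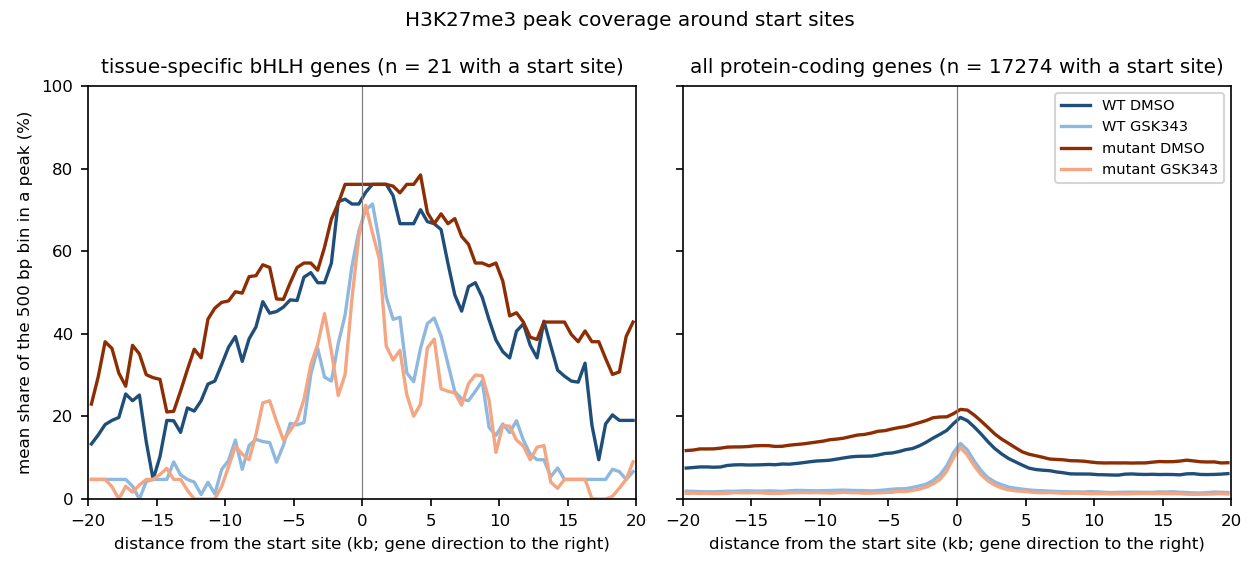
Mean share of each 500 bp bin inside a peak (vertical axis, %) by distance from the start site (horizontal axis, kb, gene direction to the right) for 21 tissue-specific bHLH genes (left) and 17274 protein-coding genes (right), with 1 line for each peak list. Under GSK343 the lines of the bHLH genes are highest within 1 kb after the start, at 71.4% in WT and 71.2% in mutant cells, and drop away within a few kb.

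The start site itself was inside a peak in 15 of the 21 tissue-specific genes in WT cells with DMSO and in 14 with GSK343. In mutant cells it was inside one in 16 and 15. The gene that differed was Nhlh2 in WT cells and Nhlh1 in mutant cells. Over all genes with a start the shares were 19.4% and 13.0% in WT and 21.3% and 12.1% in mutant cells. Of the 6 genes whose sequences are shown above, which were picked by their coverage, Olig2, Neurog2 and Neurod2 had their start in a peak in all 4 lists, and Neurod6, Myog and Tcf3 in none.

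**Figure D4:**
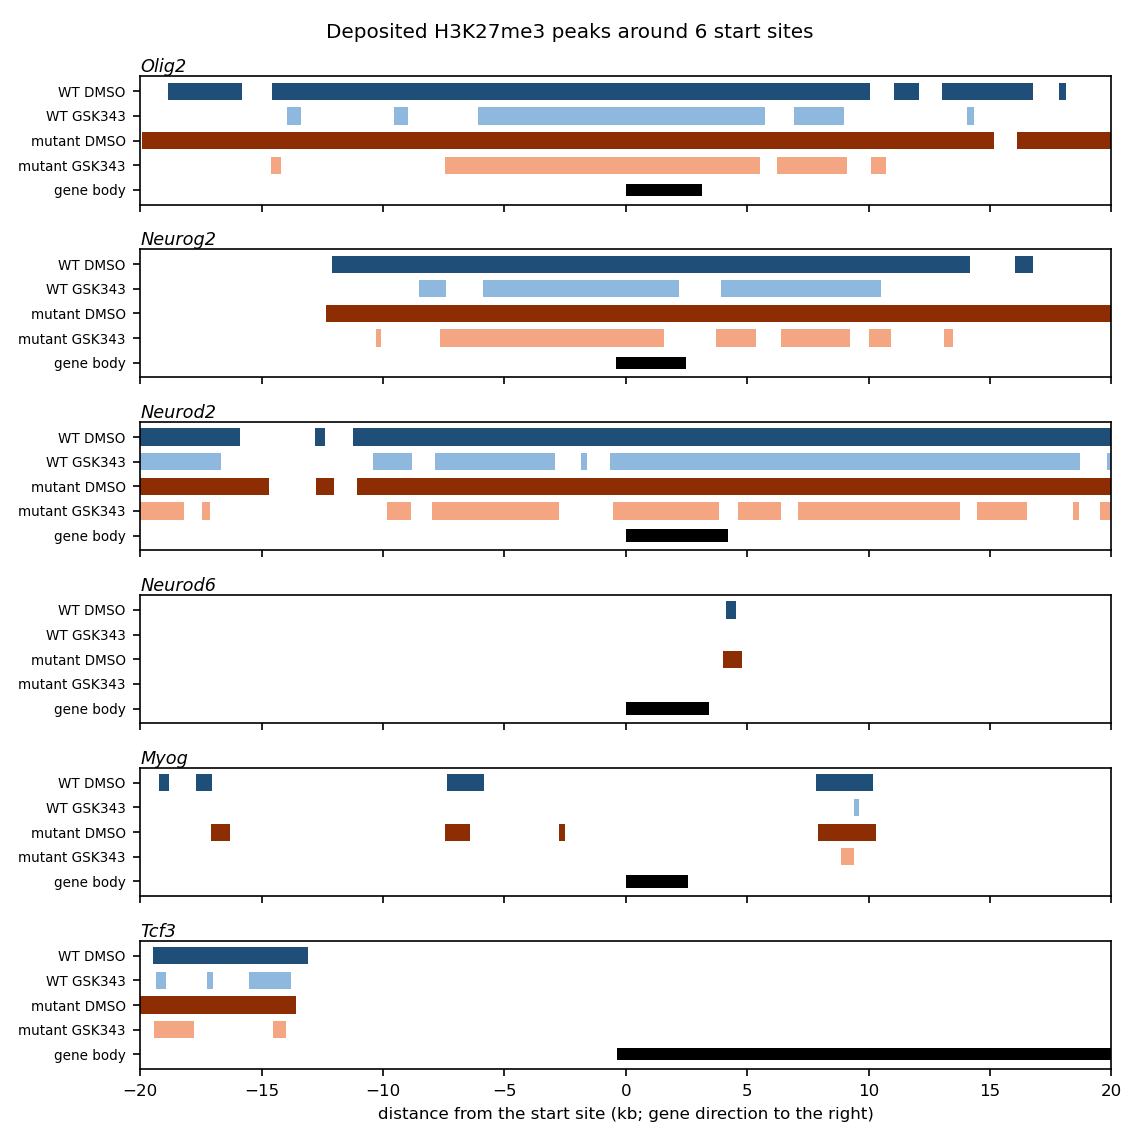
Deposited peaks (coloured bars) in the 4 lists within 20 kb of the start sites of Olig2, Neurog2, Neurod2, Neurod6, Myog and Tcf3, by distance from the start (kb, gene direction to the right), with the gene body as a black bar. The first 3 genes have long DMSO peaks and several shorter GSK343 peaks, 1 of which spans the start, Neurod6 has 1 short peak under DMSO only, and Tcf3 has peaks only beyond 12.7 kb from the gene.

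Covered and free tissue-specific genes differed in the base composition of their promoters, which played no part in how they were chosen. The CG ratio is the number of CG dinucleotides over that expected from the C and G content, here in the window from 250 bases before to 50 after the start. All 12 tissue-specific genes with a ratio of at least 0.4 had their start in a peak in each of the 4 lists. Of the 9 with a lower ratio, 2 did, Olig3 (0.252) and Tcf21 (0.378). Nhlh1 (0.0840) and Nhlh2 (0.143) were covered at the start in some lists, and the 5 others, Neurod4 (0.197), Neurod6 (0.192), Ascl4 (0.213), Myf5 (0.163) and Myog (0.373), in none. The starts used for Myf5 and Nhlh2 lie inside the annotated span of the gene. For Myf5, on the minus strand, the start is at 107486134 and the span ends at 107486927. The ratios of these genes describe only the starts used. Myog and Tcf21 lie just below the threshold of 0.4, and Atoh7 (0.455) is the nearest gene above it. That threshold was not planned in advance. At a threshold of 0.3, 13 of the 14 genes at or above it had a covered start in all 4 lists, Myog being the exception.

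All 8 other genes with a known start had a ratio above 0.4, and they were split. Tcf3 (1.03), Tcf12 (1.06), Hes5 (1.04) and Id3 (0.704) had no peak at the start in any list. Id4 and Hey2 had one in all 4 lists, Mycn in all but WT GSK343, and Bhlhe41 in both DMSO lists only. Over all 17274 genes, the start was in a WT DMSO peak in 13.0% of those with a ratio below 0.4, 29.5% of those from 0.4 to below 0.75 and 18.4% of those from 0.75 up. In WT GSK343 these shares were 5.16%, 21.4% and 15.1%. The E-box motif CANNTG, which reads the same on both strands and can overlap a CG where its middle bases are CG, occurred in the window of 12 of the 21 tissue-specific genes and in 68.8% of all genes. These matches only describe the letters of the window.

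**Figure D5:**
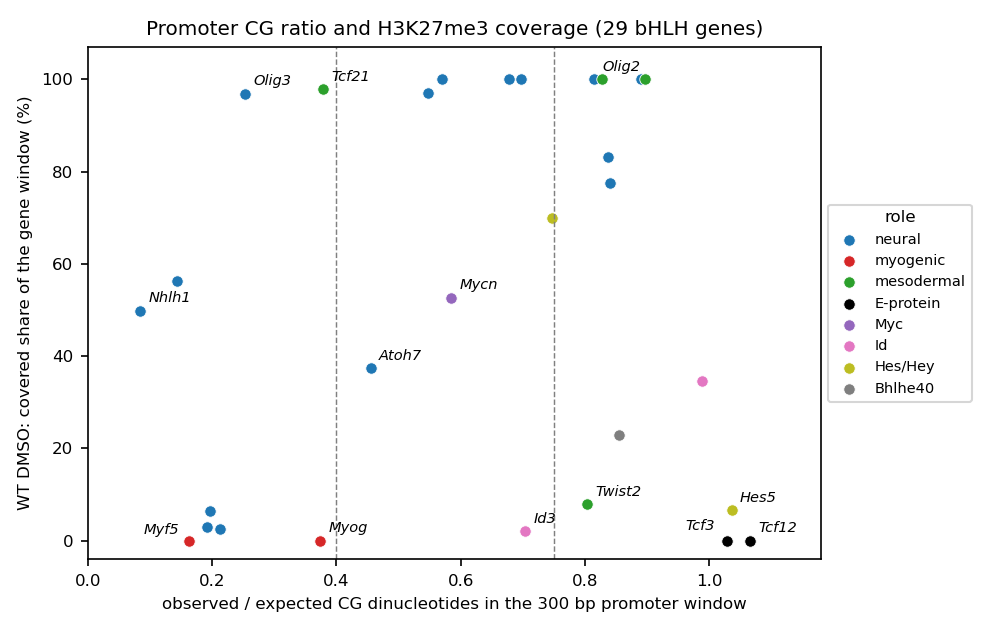
Covered share of the window in WT DMSO (vertical axis, %) against the CG ratio of the promoter window (horizontal axis) for the 29 bHLH genes with a start site (points, coloured by role), with dashed lines at 0.4 and 0.75. Neurod4, Neurod6, Ascl4, Myf5 and Myog lie at the lower left, and the CG-rich Tcf3, Tcf12 and Hes5 lie at the lower right with little or no coverage.

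To compare genotypes, WT and mutant shares were set side by side for 1 drug at a time. With DMSO the mutant share was higher than WT in 18 of the 29 tissue-specific genes, equal at full coverage in 7 and lower in 2, Olig1 and Atoh1. Myf5 and Myf6 had no peak in either. Over all genes with a peak in either list, 9312 of 10883 were higher in the mutant, 1409 lower and 162 equal. The 7 genes full in both lists could not be higher. These counts therefore do not show whether a higher mutant share was more or less frequent among the bHLH genes. The summed covered length over these windows was 1.124 times that of WT, whereas over all genes it was 1.45 times. A difference of at least 10 percentage points upward was seen in 10 of the 43 genes, where 10.9% of all genes had one, and downward in 0, where 0.296% of all genes had one. The largest were at Msc, by 31.9 points, at Mycn, by 30.1 points, and at Neurod4, by 27.6 points. A gene that is full in WT cannot be higher in the mutant, and 10 of the 43 were.

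With GSK343 the mutant share was lower in 16 of the 29 tissue-specific genes and higher in 6. Over all genes with a peak in either list, 4059 of 6171 were lower and 2107 higher, a similar split. Some of the 16 had been equal at full coverage with DMSO, and Olig1 and Atoh1 were lower with both. The summed covered length was 0.907 times that of WT, against 0.832 times over all genes. A difference of at least 10 points downward was seen in 11 of the 43 genes, among them Neurog3 (49.2% in WT, 30.0% in the mutant) and Atoh7 (25.0% and 7.29%), where 1.98% of all genes had one. An upward difference of that size was seen in 3 genes, where 0.379% of all genes had one: Bhlhe22 (24.3% in WT, 39.9% in the mutant), Hand2 (57.8% and 73.3%) and Tcf21 (19.6% and 32.1%). A gene with no peak in either list cannot differ, which holds for all but 6171 of the 21631 genes under GSK343 and for 13 of the 43 genes here. The places that kept the mark were largely shared: 78.8% of the bases covered in WT GSK343 in the tissue-specific windows were also covered in mutant GSK343, and 86.8% the other way round.

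Other bHLH genes were measured in the same way. Of 32 other tissue-specific bHLH genes, 27 had a peak in WT DMSO, with a median covered share of 55.3%, and 24 had one in WT GSK343, with a median of 23.0%. At least 50% of the window was covered in 18 of the 32 in WT DMSO but in 2 in WT GSK343, against 9 of the 29 tissue-specific genes above. Of their summed covered length, 47.2% was left in WT and 36.4% in mutant cells, less than the 61.3% and 49.5% above, a difference that was not tested. The 2 sets are not matched in length, with windows that add up to 1509 kb for the 32 genes and 429 kb for the 29. The part of length in the difference was not tested. The 5 without a peak in any list were Ascl3, Bhlha15, Msgn1, Sohlh1 and Sohlh2, of which Bhlha15 acts in secretory cells and the Sohlh genes in germ cells. Of 28 broadly expressed bHLH genes, such as Max, the partner of Myc, and Usf1, 12 had a peak in WT DMSO (42.9%, near the 43.5% of all genes) and 3 in WT GSK343 (10.7%, against 26.3%). Only Tcfl5 among these 28, a gene of the testis, was covered to at least 50%, with 54.0% and 15.1% in WT and 76.0% and 10.6% in mutant cells. These lists were written from general knowledge of where the genes act, and RNA was not measured here.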

How the data were processed

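Chromatin immunoprecipitation and sequencing of H3K27me3 was represented by 4 lists of broad peaks. Per the submitters' processing notes, MACS2 2.2.7.1, Bowtie2 2.4.2, SAMtools 1.12, bedtools 2.29.2 and deepTools 3.5.1 are named with build mm10, with no roles or settings. Each list was assigned to a genotype and treatment by the prefix of its peak names, which also carry a folder name of pooled duplicates. The prefix of the mutant lists ends in 1, so they may rest on 1 replicate. The authors removed peaks on a blacklist, per the file names. The fold (a linear ratio), the −log10 of p-values and q-values and the integer score (not used) are as deposited by the authors for each peak. Positions count from 1.

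Gene spans came from a RefSeq table of GRCm38.p6, the build mm10 stands for, and all 43 symbols matched. Promoter sequences and start sites came from a second RefSeq table of that build. For a gene with several starts, the one nearest its 5′ end was used. The covered share is the percent of window bases in at least 1 peak. No value per replicate was used, so no test was made between lists. Coverage was checked against bedtools 2.31.1, with the same bases in 172 of 172 windows, and was recovered in 200 of 200 windows tested on simulated data. Python 3.11.15 with numpy 2.4.6 and pandas 2.3.3 was used. All 43 genes are named, and the peaks named are the 5 widest WT DMSO peaks over them and those behind genes with a peak in only some lists. Alternatives were other windows, stricter peak thresholds, merged peaks, larger minimum overlaps and other CG ratio thresholds. The members, lists and roles were chosen with earlier results of these data known.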

Additional observations from a re-analysis of the deposited data

Results flagged for a closer look

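The summed covered length of the tissue-specific bHLH genes was higher in the mutant under DMSO and lower under GSK343, as it was over all genes. The mutant to WT ratio of summed covered length was 1.124 under DMSO and 0.907 under GSK343. With other windows and peak settings the DMSO ratio ran from 1.04 (within 2.5 kb of the start) to 1.27 (flanks of 20 kb). The GSK343 ratio ran from 0.789 (fold of at least 3) to 0.997 (peaks closer than 3 kb merged), the last almost equal. Whether the ratios differ was not tested, as there is 1 list a group. Over all protein-coding genes the ratios were 1.45 and 0.832. The lists themselves covered 84.3 Mb in WT DMSO, 134 Mb in mutant DMSO, 21.1 Mb in WT GSK343 and 16.95 Mb in mutant GSK343, and the part of depth in these differences was not tested.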

How the results depend on the processing

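Of 274 values of 28 results under 15 alternative settings, 219 stayed within 1.5 times the original, 55 moved further and 0 reversed. Only ratios and differences of medians could be labelled reversed, so counts and medians could not. The E-protein and Myc median stayed at 0 in nearly every setting, and those unchanged values count among the 219. Each difference of medians therefore nearly repeated the tissue-specific median and could hardly reverse. The CG ratio threshold of 0.4 and the 3 alternative settings on CG ratios and starts were chosen after seeing the data. No paired analysis was possible because the lists hold no values per replicate, and replicates could not be left out for the same reason. The cause of a move was not tested except where the window sets it. Values follow the order WT DMSO, WT GSK343, mutant DMSO, mutant GSK343, or WT then mutant.

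Most moves came from the window. For the gene body alone, the median share of tissue-specific genes, and its excess over E-protein and Myc genes, was 100%, 68.2% and 59.8% (WT DMSO and both GSK343 lists). With flanks of 1 kb it was 95.8%, 62.4% and 55.6%, and within 2.5 kb of the start 100%, 68.0% and 51.6%. With flanks of 20 kb it was 30.5%, 10.6%, 38.9% and 10.2%, the E-protein and Myc median in mutant GSK343 was 0.105%, and that excess was 10.1 points. Genes covered to at least 50% numbered 22 and 20 under GSK343 for the body alone, 20 and 20 with 1 kb, and 11, 1, 15 and 1 with 20 kb. Genes with at most 50% of their DMSO share left numbered 4 and 10 for the body alone, 6 and 14 with 1 kb, 4 and 10 around the start, and 26 in WT with 20 kb, where the mutant GSK343 to DMSO ratio was 0.323. Around the start only 29 genes could be counted, and 21, 23 and 18 had a peak (WT DMSO and both mutant lists).

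Thresholds on peaks moved less. Genes covered to at least 50% in mutant GSK343 numbered 6 under each of 3 minimums, a −log10 q-value of 2, a −log10 p-value of 5 or a fold of 3. WT genes with at most 50% left numbered 10 with that fold, 9 with the same number of top peaks, and 10 with peaks closer than 3 kb merged, where the WT GSK343 median and its excess were 46.6%. With a CG ratio threshold of 0.3, 1 tissue-specific gene below it had a covered start in all lists, and 13 of the 14 at or above it did.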
